A study of Mus musculus with 9 samples.

Results

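The Zscan4 cluster and 5 further transcripts of the 2-cell embryo were followed through 9 RNA sequencing libraries of mouse embryonic stem cells. The members are 10 genes of 33924 in the count table, taken by symbol: Zscan4b, Zscan4c, Zscan4d, Zscan4e, Zscan4f, Zfp352, B020004J07Rik (now Pramel17), Gm13119 (now Pramel31), Gm8300 and Dub1 (the older symbol of Usp17la). All 10 symbols were found, and the counts of the 5 Zscan4 genes were also summed. The 3 groups of 3 libraries are wild type for UTX, UTX knockout, and cells labelled as MLL4 knockdown. UTX is the H3K27 demethylase encoded by Kdm6a, and MLL4 is the H3K4 methyltransferase encoded by Kmt2d. All were male cells kept on gelatin in medium with serum and LIF, without further treatment. Titles carry JM8A for wild type and for the labelled knockdown, with an extra number in the latter, and A6 for every UTX knockout library. No label says whether A6 is 1 clone, so line and perturbation cannot be told apart. The perturbed groups are called the knockout and the labelled knockdown where values are listed.

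In the mouse embryo the genome is first transcribed broadly at the 2-cell stage, when Zscan4, Zfp352, many PRAME family genes and Usp17-like genes are switched on together. In cultures of embryonic stem cells a small, changing minority of cells re-enters such a state for a while, and the bulk level of these transcripts is therefore low. ZSCAN4 proteins carry a SCAN domain and zinc fingers and are known for their part in telomere lengthening and genome stability in these cells. A lower bulk level can mean fewer such cells or less RNA in each of them, and these cannot be told apart here.

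The promoters are shown first because the Zscan4 genes are copies of each other, which bears on how reads can be assigned to them. RefSeq (build GRCm38.p6) gave a promoter for 8 of the 10 members, as 250 bases before and 50 after the annotated start. The Zscan4b, Zscan4c, Zscan4d and Zscan4f promoters were 95.3% to 99.3% identical over their aligned part. Each held TATAAA on the gene's own strand, starting 31, 54, 65 and 31 bases before its annotated start, as did Gm13119, at 68 bases. The letters around that match are given below with TATAAA in capitals, for Zscan4b (chr7:10905026-10905106, minus strand), Zscan4c (chr7:11005666-11005746, plus), Zscan4d (chr7:11166158-11166238, minus), Zscan4f (chr7:11397859-11397939, plus) and Gm13119 (chr4:144357871-144357951, plus).
Zscan4b: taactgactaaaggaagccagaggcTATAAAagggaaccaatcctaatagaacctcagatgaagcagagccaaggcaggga
Zscan4c: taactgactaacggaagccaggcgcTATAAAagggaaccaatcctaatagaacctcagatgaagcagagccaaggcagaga
Zscan4d: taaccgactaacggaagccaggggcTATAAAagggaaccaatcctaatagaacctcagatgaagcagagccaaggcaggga
Zscan4f: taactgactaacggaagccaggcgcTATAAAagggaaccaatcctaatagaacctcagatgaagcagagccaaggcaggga
Gm13119: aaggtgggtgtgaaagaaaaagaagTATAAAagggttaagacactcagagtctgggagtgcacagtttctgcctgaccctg

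The 4 Zscan4 windows were 95.1% to 98.8% identical base for base, without gaps, so the differing distances reflect where the start is annotated. The Gm13119 window matched them at 32.1% to 33.3% of bases. Of all 32851 promoters in that table, 13.6% held TATAAA on either strand. The upstream 250 bases of Zscan4c (chr7:11005495-11005744, plus strand) and of Zfp352 (chr4:90218570-90218819, plus strand) show a member with the match and one without it.
Zscan4c: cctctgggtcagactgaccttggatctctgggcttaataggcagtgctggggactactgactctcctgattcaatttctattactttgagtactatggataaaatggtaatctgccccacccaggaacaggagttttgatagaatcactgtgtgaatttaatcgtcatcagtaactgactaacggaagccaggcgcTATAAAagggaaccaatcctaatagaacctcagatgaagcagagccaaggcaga
Zfp352: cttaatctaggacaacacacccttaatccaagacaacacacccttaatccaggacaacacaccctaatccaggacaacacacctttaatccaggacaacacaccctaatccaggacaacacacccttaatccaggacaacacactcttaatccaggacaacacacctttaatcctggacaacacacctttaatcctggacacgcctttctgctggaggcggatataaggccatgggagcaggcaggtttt

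The Zfp352 sequence repeats the 10 bases gacaacacac 9 times and held no TATAAA in its window, and neither did B020004J07Rik or Dub1. TGCACAC, letters bound by ZSCAN4 itself, occurred in 0 of the 8 promoters and in 4.4% of all. TGATT and AATCA with any 1 base between them, searched on both strands like the others, occurred in 0 of the 8 and in 0.0335% of all. These are matches of letters in a window only.

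How far a read can be placed on 1 copy was described from GENCODE M21 transcripts. In the longest transcript of each Zscan4 gene, 49.6% (Zscan4d) to 95.3% (Zscan4f) of 50-base windows also occurred in another gene, in each case a Zscan4 copy or a model holding Zscan4 sequence. With 100-base windows the range was 29.6% to 89.5%. The other members shared less: 7.09% of 50-base windows for Zfp352, 13.4% for B020004J07Rik, 19.6% for Dub1, 26.6% for Gm8300 and 38.6% for Gm13119. Gm8300 shared its windows with a group of models of the same family and with Eif1a, a translation initiation factor gene. The read length and the treatment of reads with several matches are not stated in any label or header. The split between single Zscan4 genes is thus uncertain, and their sum is given beside them.

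Library totals lay between 18570746 and 23874816 counts, and 14772 genes were tested. The labelled targets were looked at first. Kdm6a stood at 89.0, 57.1 and 90.6 CPM (reads scaled to a common library size with TMM factors) in wild type replicates 1 to 3 and at 12.8, 16.9 and 19.4 CPM once UTX was knocked out. Which part of the gene was deleted is not given in the sources used here. Kmt2d, listed as Mll2, stood at 86.2, 43.5 and 119 CPM in wild type and at 71.0, 72 and 73.4 CPM in the libraries labelled MLL4 knockdown (log2 fold change -0.20, 95% interval -0.79 to 0.39, adjusted p = 0.624 by edgeR). Against wild type its transcript does not bear out that label, although the interval also holds a fall of 0.79. Set against the UTX knockout it stood at -0.64 (adjusted p = 0.0987 by edgeR, 0.0376 with the replicate number as a block). Any direction drawn from those libraries rests on the label. Embryonic stem cell markers such as Pou5f1 and Nanog summed to 5310 to 7160 CPM over the 9 libraries, with 0 of the 10 at 0.

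All 10 members were low, and all had their highest level in the wild type group and their lowest in the knockout. Replicates 1, 2 and 3 of wild type held 1087, 495 and 462 counts of the members together. The same replicates of the UTX knockout held 152, 42 and 53, and those of the labelled MLL4 knockdown 450, 156 and 199. At these depths 3 counts, the limit that a count of 0 allows, equal 0.128 to 0.161 CPM, so that several UTX knockout values lie near this limit.

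Zscan4d, the copy that predominates in the 2-cell embryo, had 11.7, 4.13 and 3.54 CPM in wild type, 1.67, 0.0865 and 0.464 CPM in the knockout and 7.26, 1.72 and 1.73 CPM in the labelled knockdown. Zscan4c, the copy best known from embryonic stem cells, had 8.57, 3.79 and 3.76, then 0.933, 0.476 and 0.464, then 4.14, 0.724 and 1.77 CPM in the same order of groups. In both, every UTX knockout library lay below every wild type library, while replicate 1 of the labelled knockdown lay above wild type replicates 2 and 3. Zscan4e, which RefSeq lists as a pseudogene, had 5.82, 1.41 and 2.37 CPM in wild type, 0.736, 0.259 and 0.279 in the knockout and 1.51, 0.724 and 0.753 in the labelled knockdown. Zscan4f had 4.93, 1.24 and 1.52, then 0.491, 0.13 and 0.186, then 1.88, 0.498 and 0.797 CPM. Zscan4b, the lowest of the 5, had 2.7, 0.767 and 1.25, then 0.589, 0.0432 and 0.186, then 1.34, 0.317 and 0.531 CPM. The 3 genes repeat the same picture, with the UTX knockout apart from wild type and the labelled knockdown overlapping it.

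Zfp352, a zinc finger gene of the 2-cell embryo, had 3.27, 2.39 and 1.7 CPM in wild type, 0.589, 0.259 and 0 CPM in the knockout and 1.08, 0.272 and 0.487 CPM in the labelled knockdown. Neither perturbed group overlapped wild type. B020004J07Rik and Gm13119 belong to the PRAME family, leucine-rich repeat proteins expressed in germ cells and early embryos. B020004J07Rik had 2.34, 1.28 and 1.07 CPM in wild type, 0.196, 0 and 0 in the knockout (4 counts in all) and 0.43, 0.226 and 0.0886 in the labelled knockdown (15 counts). Gm13119 had 5.04, 2.56 and 1.75, then 0.785, 0.13 and 0.371, then 2.58, 1.18 and 0.93 CPM. Of these 3 genes, Gm13119 was the one whose labelled knockdown libraries overlapped wild type.

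Gm8300, which shares sequence with Eif1a, had 5.97, 2.05 and 2.06 CPM in wild type, 1.08, 0.303 and 0.464 in the knockout and 2.31, 0.996 and 1.33 in the labelled knockdown. Dub1, a deubiquitinating enzyme of the Usp17-like family, had 6.08, 1.49 and 1.66, then 0.393, 0.13 and 0.0464, then 1.67, 0.407 and 0.399 CPM. In both, the UTX knockout lay wholly below wild type and replicate 1 of the labelled knockdown reached above the lowest wild type library.

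**Figure D1:**
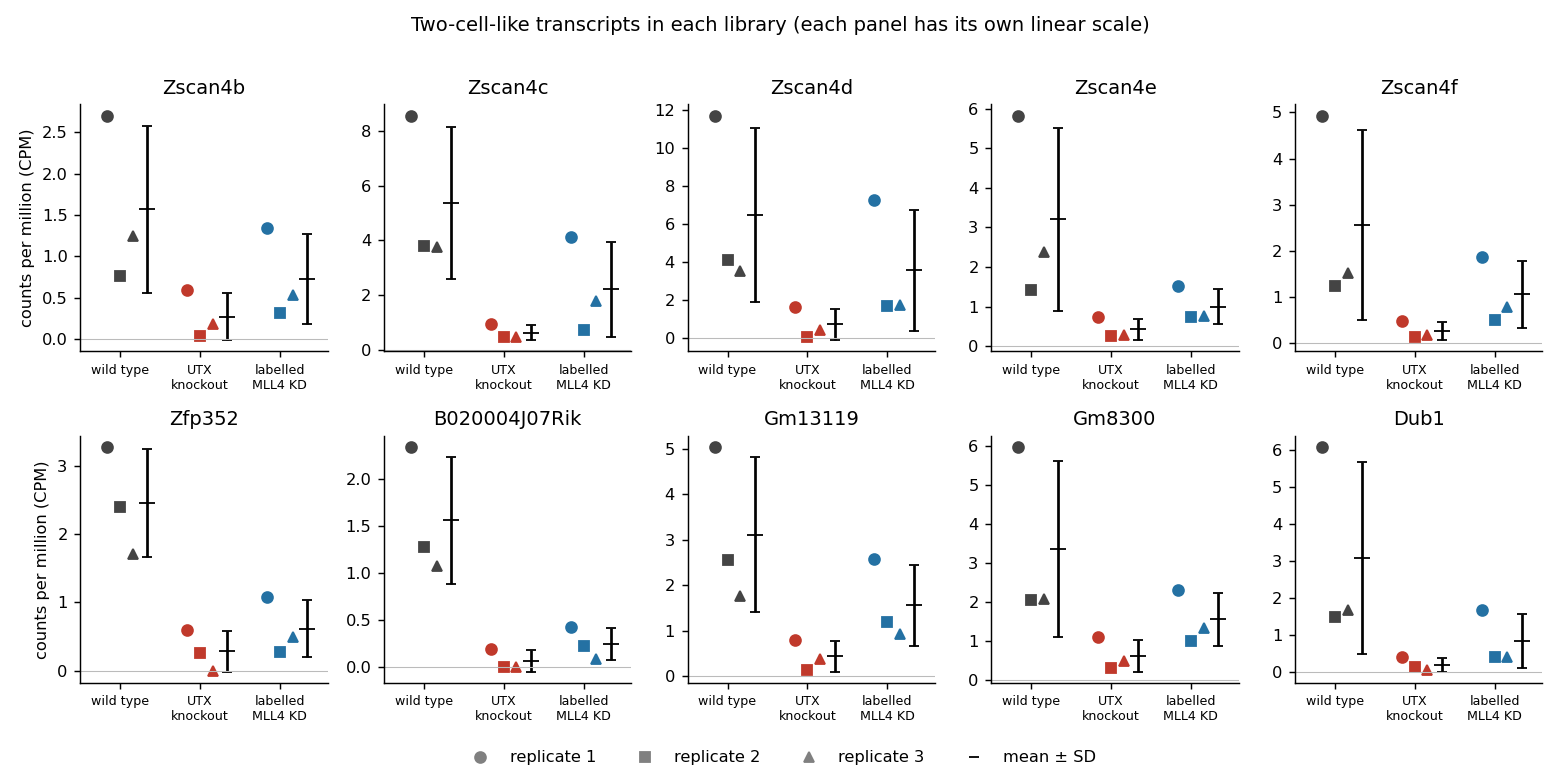
CPM of each member (linear axis, one scale per panel) for the 3 libraries of every group, with marker shape for the replicate number and bars for mean ± SD (n = 3). In each of the 10 panels replicate 1 is the highest library of its group and the UTX knockout libraries sit below all wild type libraries.

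Divided by exon length, the wild type levels ran from 2.85 ± 2.01 CPM per kb (SD, n = 3) for Zscan4d and 2.36 ± 1.22 for Zscan4c to 0.873 ± 0.558 for Zscan4b and 0.791 ± 0.343 for B020004J07Rik. The order between them was Gm8300, Zscan4e, Gm13119, Zscan4f, Dub1 and Zfp352, from 1.79 to 1.08 CPM per kb. Each neighbouring pair in this order overlapped between libraries, so the order of neighbours is within the spread. Lengths are from GENCODE M21, and the annotation the authors counted on is not given in the sources used here.

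Summed over the 5 copies, Zscan4 stood at 33.8, 11.3 and 12.5 CPM in wild type (19.2 ± 12.6), at 4.42, 0.994 and 1.58 CPM in the knockout (2.33 ± 1.83) and at 16.1, 3.98 and 5.58 CPM in the labelled knockdown (8.57 ± 6.61; SD, n = 3 each). The mean level was 12.1% of wild type in the knockout and 44.7% in the labelled knockdown. The spread within each group came mostly from replicate 1. Compared within a replicate number, wild type was 7.64, 11.4 and 7.89 times the UTX knockout, a narrower range than the levels themselves. It was 2.09, 2.85 and 2.23 times the labelled knockdown, and the labelled knockdown was 3.65, 4.0 and 3.53 times the UTX knockout.

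**Figure D2:**
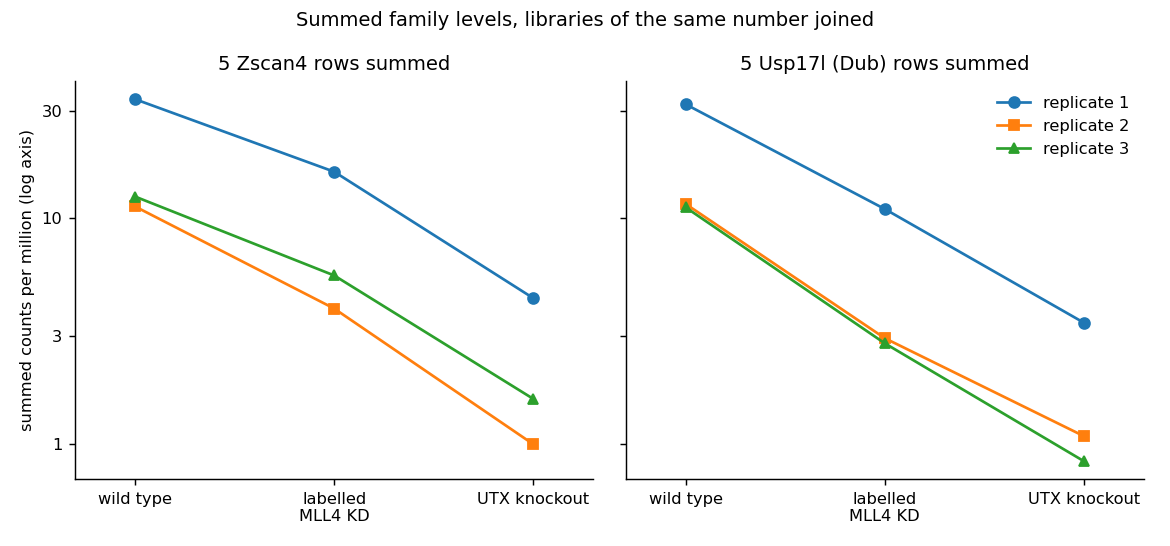
Summed CPM (log axis) of the 5 Zscan4 genes and of the 5 Usp17-like genes, with lines joining libraries of the same replicate number from wild type through the labelled MLL4 knockdown to the UTX knockout. Replicate 1 lies above replicates 2 and 3 throughout and the lines do not change order, with Zscan4 falling from 33.8 to 4.42 CPM in replicate 1 and from 11.3 to 0.994 CPM in replicate 2.

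The same holds gene by gene. Replicate 1 was the highest library in each of the 3 groups for 10 of 10 members, at a median of 2.79, 3.13 and 2.88 times the mean of the other libraries of its group. Among all tested genes, replicate 1 was highest for 35.0%, 38.4% and 39.0%. Within each replicate number, 10 of 10 members had more in wild type than in the labelled knockdown and more there than in the knockout. That order in all 3 numbers was met by 460 of the 14772 tested genes (3.11%). The members were chosen with earlier results of these data known, so this is a description.

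The first comparison asked which of these transcripts differ when UTX is lost. All 10 members fell and 0 rose, with or without the filter on low counts, where 8.92% of all tested genes fell and 6.55% rose (edgeR quasi-likelihood test on all 9 libraries, Benjamini-Hochberg adjusted p under 0.05). Log2 fold changes lay between -4.52 and -2.45 with a median of -3.10, and the median of all tested genes was -0.01. The groups did not overlap for 10 of 10 members, and 16.0% of all tested genes were lower without overlap.

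Dub1 stood at -3.99 (SE 0.84, adjusted p = 0.0104 by edgeR). It needed its wild type libraries to pass the filter on low counts. Over the cutoff were 3 wild type, 0 knockout and 1 labelled knockdown libraries, so the call of Dub1 is no support for the count. B020004J07Rik had the lowest fitted value (log2 fold change -4.52, SE 0.81, adjusted p = 0.00521), but it passed the filter on low counts through its wild type libraries alone, the group where it is high, so its call is no support for the count. Its 4 knockout counts all came from replicate 1, and the fitted value moved to -8.07 without that library, where no knockout count remained and the value depends on the prior count. Leaving out each other library in turn left it at or below -3.94. Among the Zscan4 genes, Zscan4f stood at -3.24 (SE 0.72), Zscan4d at -3.14 (SE 0.83), Zscan4c at -3.10 (SE 0.60), Zscan4e at -2.90 (SE 0.60) and Zscan4b at -2.53 (SE 0.76), with adjusted p from 0.00712 to 0.044. Their intervals overlap widely, so no copy is set apart. Zfp352 stood at -3.11 (SE 0.70), Gm13119 at -2.86 (SE 0.61) and Gm8300 at -2.45 (SE 0.57), the smallest change. For the Zscan4 sum the fitted change was -3.05 (SE 0.66, 95% interval -4.50 to -1.60).

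With the replicate number as a block, 10 of 10 fell again (adjusted p 4.03e-05 to 0.00123), where 12.8% of all tested genes fell, and the Zscan4 sum stood at -3.11 with an SE of 0.18. Without UTX knockout replicate 2 the test without the block called 2 of 10, and without UTX knockout replicate 3 it called 6. All 10 had an unadjusted p under 0.05 in each. Of all tested genes 5.53% and 7.28% were called in these fits, in either direction, against 15.5% with all libraries. The Zscan4 sum stood at -2.35 without wild type replicate 1 and at -3.89 without UTX knockout replicate 1. In lane 2 alone (replicates 1 and 3), edgeR called 0 of 10, with 10 at an unadjusted p under 0.05, adjusted p from 0.0764 to 0.167 and a median of -3.03; 74 of 14776 genes were called there.

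The second comparison asked the same of the libraries labelled MLL4 knockdown. All 10 members had negative fold changes, from -2.66 to -0.87 with a median of -1.28, but 3 of 10 fell in the test and 0 rose, where 15.8% of all tested genes fell and 10.8% rose. These were Zfp352 (-2.02, SE 0.63, adjusted p = 0.0355), Zscan4e (-1.69, SE 0.54, adjusted p = 0.04) and B020004J07Rik (-2.66, SE 0.66, adjusted p = 0.0127), the last again tested only because its wild type libraries passed the filter. Adjusted p for the other 7 lay between 0.0622 (Dub1, -1.92) and 0.402 (Zscan4d, -0.87). The Zscan4 sum stood at -1.17 (SE 0.60, 95% interval -2.48 to 0.14), an interval that holds 0 and also a change as large as 2.48. Only B020004J07Rik and Zfp352 among the 10 did not overlap wild type, and 22.4% of all tested genes were lower without overlap.

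With the replicate block the call changed: 10 of 10 fell (adjusted p 0.000377 to 0.0182), where 19.5% of all tested genes fell, and the Zscan4 sum stood at -1.24 with an SE of 0.15. Without the block, edgeR called 1 without wild type replicate 1 or without UTX knockout replicate 2, 5 without replicate 1 of the labelled knockdown, and 0 without its replicate 2 or 3 (3 at an unadjusted p under 0.05 in each). It called 0 in lane 2 alone (9.08% of all, 2 members at an unadjusted p under 0.05, median -1.21), so the count without a block depends on single libraries. The sizes do as well: without wild type replicate 1 the median of the members moved to -0.63, Zscan4e to -0.92, Zscan4d to -0.11 and the Zscan4 sum to -0.47, and without replicate 1 of the labelled knockdown Zscan4d moved to -1.89 and the sum to -2.

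The third comparison set the perturbed groups against each other. All 10 members were higher in the labelled knockdown than in the UTX knockout, by 1.09 to 2.28 in log2 with a median of 1.84, and 2 rose in the test: Gm13119 (1.86, SE 0.63, adjusted p = 0.0455) and Zscan4c (1.81, SE 0.62, adjusted p = 0.0471). Of all tested genes 13.0% rose. Zscan4d, Zscan4f, Gm13119 and Dub1 did not overlap between the groups, against 25.7% of all tested genes that were higher without overlap. The Zscan4 sum was 1.88 higher (SE 0.66, 95% interval 0.44 to 3.33).

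With the replicate block 8 of 10 rose, against 17% of all tested genes, and Zfp352 (1.09, adjusted p = 0.156 with the block) and B020004J07Rik (1.86, adjusted p = 0.0833 with the block) did not pass. Without the block, leaving out a library gave 0 to 6 calls: 0 without wild type replicate 2, UTX knockout replicate 2 or 3, or labelled knockdown replicate 1 (6, 2, 2 and 0 at an unadjusted p under 0.05), 1 without wild type replicate 3 or labelled knockdown replicate 2 or 3, and 6 without wild type replicate 1. Lane 2 alone gave 0 (10.4% of all), with 2 at an unadjusted p under 0.05 and a median of 1.49.

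**Figure D3:**
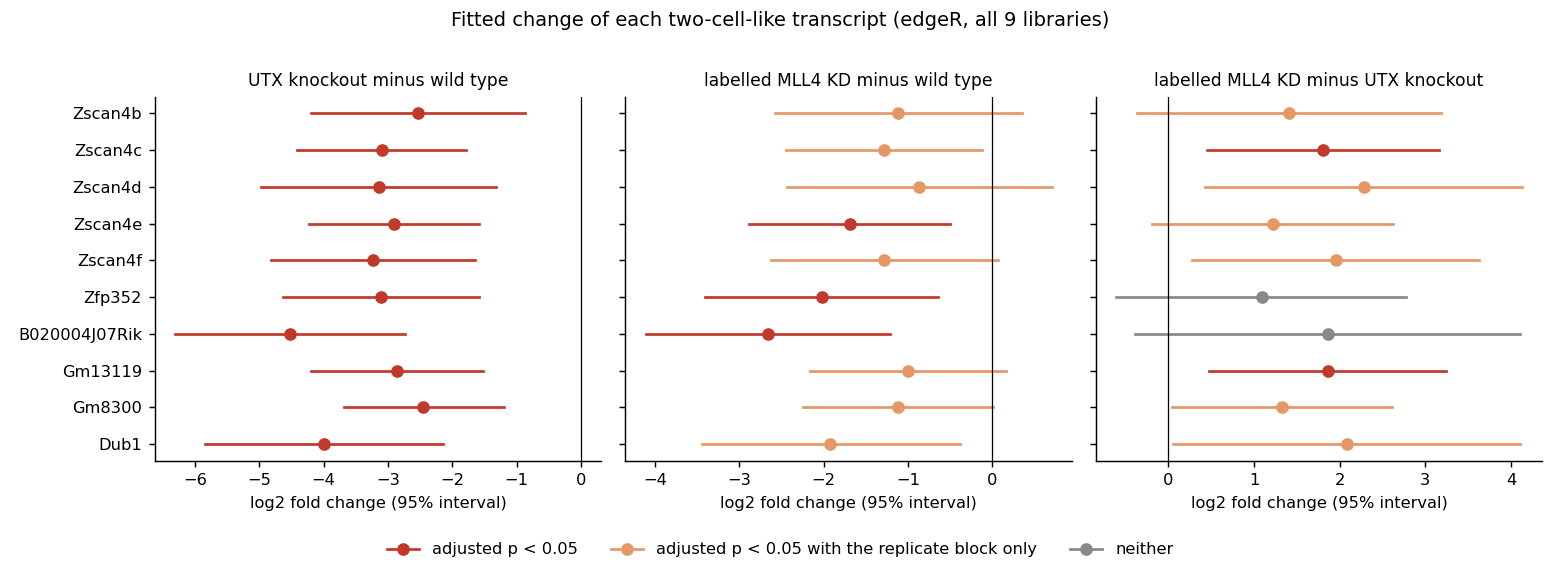
Log2 fold change of each member with its 95% interval from the fit without a block, for the 3 comparisons, coloured by whether the adjusted p passed 0.05 without the block, only with it, or in neither fit. All 10 pass against wild type in the UTX knockout, 3 in the labelled MLL4 knockdown, and Zfp352 and B020004J07Rik pass in neither fit between the perturbed groups.

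Zscan4c and Zscan4d gave most of the Zscan4 sum in each group. Zscan4d gave 33.2% ± 4.27 of the sum in wild type, 25.3% ± 15.0 in the knockout and 39.7% ± 7.62 in the labelled knockdown (SD, n = 3), and Zscan4c gave 29.7%, 32.8% and 25.2%. Zscan4f stayed between 12% and 12.8% in the group means. The low share of Zscan4d in UTX knockout replicate 2, 8.7%, rests on 2 of 23 counts (95% Wilson interval 2.42% to 26.8%, counting error only). No test of a shift was made, since copies share sequence and the treatment of reads that match several copies is not stated.

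**Figure D4:**
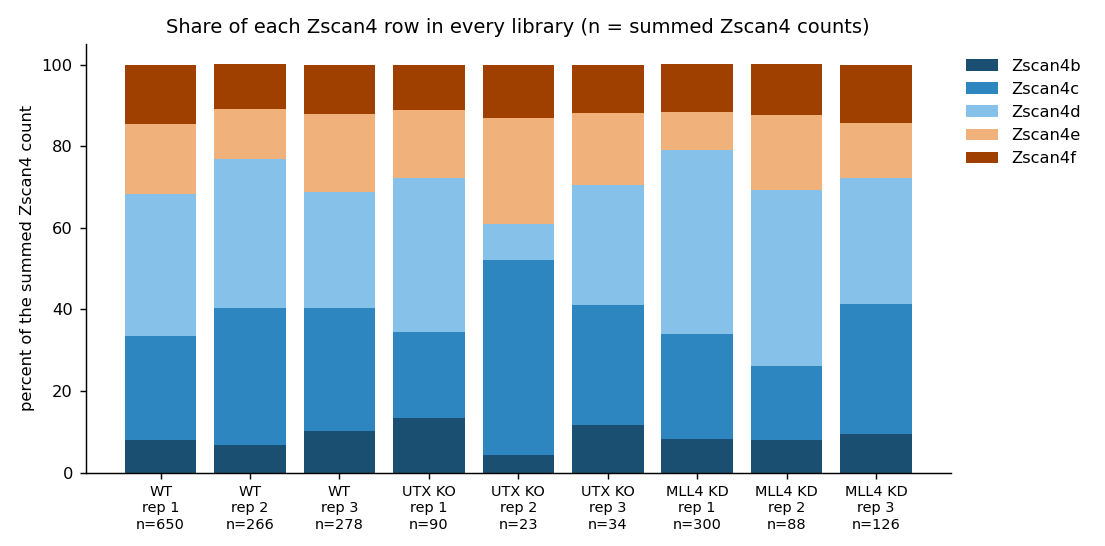
Share of each Zscan4 gene in the summed Zscan4 count of every library (percent), with the summed count below each bar. Zscan4c and Zscan4d make up most of each bar, and the bar of UTX knockout replicate 2, which rests on 23 counts, differs most from the others.

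Dub1 has 4 listed relatives in the Usp17-like family: Dub1a, Dub2a, Dub3 and Usp17l5. Of its 100-base windows 3.32% also occurred in a Usp17-like gene, and these were Dub1a and Dub3 (now Usp17lb and Usp17le). All 4 fell in the UTX knockout, with log2 fold changes of -3.94, -3.14, -3.57 and -2.67 and adjusted p from 0.00517 to 0.0151, where 8.92% of all tested genes fell. Dub1a and Dub2a, like Dub1, needed their wild type libraries to pass the filter on low counts, so their falls are no support. In the labelled knockdown Dub1a (-2.10) and Usp17l5 (-1.70) fell, where 15.8% of all tested genes fell, and the other 2 stood at -1.65 and -1.53. With the replicate block all 4 fell there, where 19.5% of all tested genes fell. Summed with Dub1 the 4 relatives gave 619, 273 and 251 counts in wild type, 70, 25 and 18 in the knockout, and 205, 65 and 63 in the labelled knockdown. The mean level was 9.73% and 30.5% of wild type. Replicate 1 was again the highest of each group.

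The genes whose levels followed the Zscan4 sum most closely over the 9 libraries were found by Pearson correlation of log2 CPM, given as a description without p, since the libraries share groups and replicate numbers. Among non-members the 10 highest were Zscan4-ps2 (0.99), Dub3 and Gm2016 (0.987 each), Gm2075 (0.985), Gm6804 (0.98), 5730577I03Rik (0.975), Cml2 and Gm5662 (0.974 each), and Dub2a and Pdlim3 (0.971 each). Zscan4-ps2 is a Zscan4 copy whose transcript shares 50-base windows with every gene of the sum, so reads may fit both. Gm2016, Gm2075 and Gm5662 lie on chromosome 12 like Gm8300. Pdlim3, a muscle LIM domain gene, averaged 6.31 CPM in wild type, 0.764 in the knockout and 1.8 in the labelled knockdown. Of the members outside the cluster, Gm8300 stood at 0.991, Gm13119 at 0.977, Dub1 at 0.967, B020004J07Rik at 0.923 and Zfp352 at 0.878, the last at rank 209 among the tested genes.

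A wider list held 42 further genes of the 2-cell-like state in the table, of which 16 were tested. In the UTX knockout 14 fell and 0 rose, with a median log2 fold change of -2.98. In the labelled knockdown 9 fell and 0 rose, with a median of -1.72, and 15 fell in each of these comparisons with the replicate block. Of all tested genes 8.92% and 15.8% fell, and 12.8% and 19.5% with the block. The list was drawn up with earlier results known and overlaps the families above, so its direction is no independent evidence. Some of the 16, such as Oog4, Gm13083 and Ubtfl1, passed the filter on low counts only through their wild type libraries, so their falls are no support. Ubtfl1, a relative of the transcription factor gene Ubtf, stood at -3.66 (adjusted p = 0.0117) in the UTX knockout, and BB287469 at -2.59 (adjusted p = 0.0124) and, in the labelled knockdown, -1.73 (adjusted p = 0.0328). The 26 genes too low to test had 123, 139 and 109 summed counts in wild type, 22, 3 and 7 in the knockout and 49, 19 and 24 in the labelled knockdown.

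Oog4 and Obox6 on that list are described on their own. Oog4, a PRAME-like oocyte gene on chromosome 4, had 209, 266 and 236 counts in wild type, 0, 1 and 0 in the knockout, and 3, 3 and 4 in the labelled knockdown. Its wild type level, 10.9 CPM ± 0.387 (SD, n = 3), lacked the high replicate 1 of the members, while its fitted changes had the members' sign in all 3 comparisons and passed each test (adjusted p from 1.31e-06 to 0.0168). Oog4 passed the filter on low counts only through its wild type libraries, so its calls against wild type are no support for a shared fall. Obox6, an oocyte homeobox gene, had 25, 39 and 27 counts in wild type, 13, 26 and 22 in the knockout (-0.58, adjusted p = 0.267) and 2, 4 and 6 in the labelled knockdown (-2.85, adjusted p = 0.000687). It fell by 2.27 in the labelled knockdown against the UTX knockout (adjusted p = 0.00289), opposite in sign to all 10 members.

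Genes listed here as activators of the state were tested as a list of 9, and their roles in these cells were not tested. In the UTX knockout 1 rose and 2 fell, and in the labelled knockdown 3 rose and 3 fell, with medians of -0.03 and 0.08. Of all tested genes 6.55% rose and 8.92% fell in the former comparison, and 10.8% rose and 15.8% fell in the latter. Dppa2, a chromatin factor that activates Dux and Zscan4, fell from 103 ± 16.9 CPM to 56.1 ± 4.86 (-0.88, adjusted p = 0.00514) and to 60.8 ± 10.6 (-0.76, adjusted p = 0.00493; SD, n = 3 each). Its partner Dppa4, named after its values were seen, stood at 0.00 (adjusted p = 0.99) and -0.19 (adjusted p = 0.261). Dux, the homeobox gene upstream of the state, likewise named afterwards, was too low to test, with 7, 6 and 8 counts in wild type, 2, 0 and 3 in the knockout and 3, 4 and 0 in the labelled knockdown.

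Tbx3, a T-box factor linked to Zscan4 expression, rose in both comparisons (0.91, adjusted p = 0.0442, and 0.90, adjusted p = 0.0324), opposite in sign to the members. Gata3, which is also among the trophectoderm genes below, fell by 1.59 in each. Gata2 (1.32) and the zinc finger gene Zfp281 (0.51) rose in the labelled knockdown, and Mael, a germline gene of the piRNA pathway, fell there (-1.02). In wild type, Dppa2 was lowest in replicate 1 (1608 counts, against 2692 and 2465), where the members were highest.

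Genes known to hold the state down were tested as a list of 35. In the UTX knockout 1 rose and 1 fell (median 0.04), and in the labelled knockdown 4 rose and 2 fell (median 0.15). The 4 rises are near the 10.8% of all tested genes that rose there, and 15.8% fell; in the UTX knockout 6.55% rose and 8.92% fell. Lin28a, an RNA-binding protein with a part in silencing Dux, fell in both (-0.69, adjusted p = 0.00263, and -0.59, adjusted p = 0.00223), and Uhrf1, a cofactor of maintenance DNA methylation, rose in the UTX knockout (0.47, adjusted p = 0.00768). The H3K9 methyltransferase genes Suv39h1 (0.97) and Setdb1 (0.31) and the corepressor gene Rcor1 (0.72) rose in the labelled knockdown, where the deacetylase gene Hdac1 fell (-0.57).

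Because ZSCAN4 is known for telomere maintenance, 16 telomere and recombination genes were tested. In the UTX knockout 1 rose and 2 fell, and in the labelled knockdown 2 rose and 3 fell, with medians of -0.02 and -0.01. These counts are near the shares of all tested genes, 6.55% up and 8.92% down in the UTX knockout, 10.8% up and 15.8% down in the labelled knockdown. The telomere-binding gene Terf1 rose in the labelled knockdown (0.77, adjusted p = 0.0011) and Dkc1, of the telomerase complex, rose in both (0.47 and 0.60). The shelterin gene Acd fell in both (-0.55 and -0.66), and Terf2 fell in the UTX knockout (-0.41). Of the meiotic genes, Smc1b fell in the labelled knockdown (-1.74, adjusted p = 0.0005), and Dmc1 was lower there than in the UTX knockout (-0.82).

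Maternal and oocyte genes were tested as a list of 7. UTX loss went with 1 rise and 2 falls, and the labelled knockdown with 5 falls, with medians of -0.39 and -2.56, where 6.55% and 8.92% of all tested genes rose and fell after UTX loss and 15.8% fell in the labelled knockdown. Dppa3, a maternal factor that guards DNA methylation after fertilisation, fell in both (-1.53, adjusted p = 0.00112, and -3.26, adjusted p = 7e-06). Npm2 fell in both (-2.16 and -2.56), from 1.33 CPM to 0.3 and 0.223. It needed its wild type libraries to pass the filter on low counts, so its falls are no support for these counts. Ooep of the subcortical maternal complex rose in the UTX knockout (1.29, adjusted p = 0.000693), while Tle6 and 2410004A20Rik (now Khdc3) of that complex fell in the labelled knockdown (-2.89 and -2.11), as did the zona pellucida gene Zp3 (-2.86). Between the perturbed groups 5 of the 7 were lower in the labelled knockdown and 0 higher, while all 10 members were higher there. Of all tested genes 16.0% fell in that comparison.

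**Figure D5:**
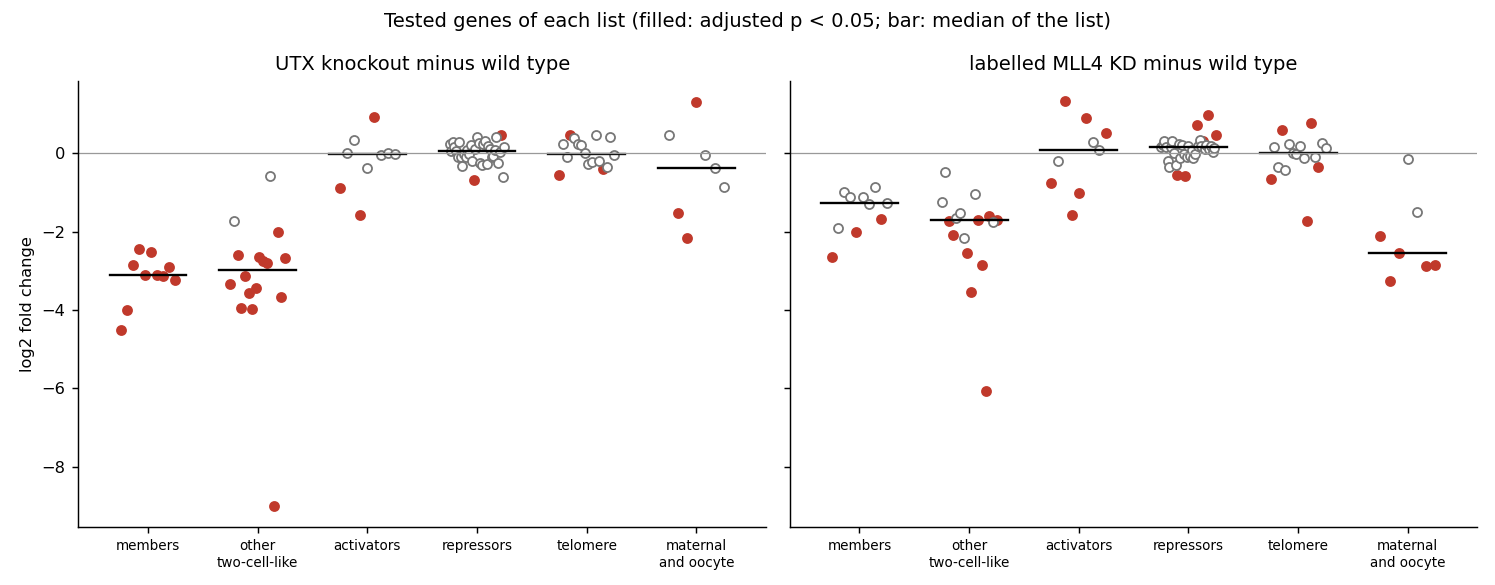
Log2 fold change of each tested gene against wild type in the UTX knockout and the labelled MLL4 knockdown, by list, with filled points for adjusted p under 0.05 and a bar at the list's median. The members (medians -3.10 and -1.28) and the other 2-cell-like genes lie far below 0, the activators, repressors and telomere genes lie around 0, and the lowest point is Oog4, whose fitted value rests on 1 count in the UTX knockout.

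The members lie on chromosomes 4 (Zfp352, B020004J07Rik, Gm13119), 7 (the Zscan4 cluster and Dub1) and 12 (Gm8300). In the UTX knockout 19.6% of tested genes on chromosome 4 fell, 8.65% on chromosome 7 and 4.85% on chromosome 12, with median log2 fold changes of -0.15, -0.02 and 0.04. The labelled knockdown had 27.2%, 17.2% and 10.5%, with medians of -0.21, -0.04 and 0.05. Falls were thus more frequent on chromosome 4 than over all tested genes, and less frequent on chromosome 12, in both comparisons. Of the 10 tested genes nearest the Zscan4 cluster, 5 on each side, 2 fell in the UTX knockout: the chloride transporter gene Clcn4-2 (-0.87) and Zscan4-ps2 (-3.39), itself a copy, where 8.92% of all tested genes fell. In the labelled knockdown 5 of these neighbours rose and 0 fell, with a median of 0.58, where 10.8% of all tested genes rose and 15.8% fell.

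Summed levels of some markers of other cells also differed between groups. The summed level of 12 feeder or fibroblast genes was 48.7, 233 and 171 CPM in wild type, mostly Tagln and Acta2. It was 16.8 to 31.8 CPM in the knockout and 20.7 to 23.2 in the labelled knockdown, with 2, 5 and 2 genes at 0 in the whole group. Of the 6 tested, 4 fell in the UTX knockout and 6 in the labelled knockdown, where 8.92% and 15.8% of all tested genes fell. Col1a2, at 0.109 and 0.388 CPM there, needed its wild type libraries to pass the filter on low counts, so its falls are no support. Thy1 (-0.37) and Pdgfrb (0.26) did not pass in the UTX knockout. The 10 trophectoderm genes summed to 147, 592 and 536 CPM, 127 to 178 and 98.9 to 119, in wild type mostly Krt8 and Krt18. Of the 9 tested, 6 fell in each comparison against wild type. Cdx2, which fell in the UTX knockout only, likewise needed its wild type libraries to pass the filter, so its fall is no support. In the UTX knockout Tead4 rose (0.96), where 6.55% of all tested genes rose, and Eomes stood at -0.03. Wild type replicate 1, where the members were highest, was the lowest wild type library for both sums. The sums of 10 primitive endoderm genes (262 to 342, 213 to 321 and 266 to 305 CPM) overlapped between groups, and those of 10 germ cell genes were 107 to 120, 105 to 112 and 148 to 158 CPM. Their part in the results on the members was not tested.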

How the data were processed

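Per the labels' protocols, a TruSeq kit was used for the RNA libraries. The deposited table holds the authors' unnormalised read counts for each gene symbol, and its 9 columns were matched to samples by title. Per the submitters' processing notes, STAR 2.4 and HTSeq 0.6.1 were used with mm9 and hg19, whose roles are not described. Neither the annotation nor the strand setting nor the handling of multiply matching reads is stated, so antisense and near-identical genes cannot be separated.

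Of 33924 genes, 24396 had a count, and 14772 passed edgeR's filterByExpr (minimum count 10, by group). The quasi-likelihood test of edgeR 4.0.16 (R 4.3.3) was run on all 9 libraries, group only, two-sided, with Benjamini-Hochberg adjustment over all tested genes and a threshold of 0.05. CPM used TMM factors, and correlations used log2 CPM with prior count 2. For the Zscan4 sum, the fit was repeated with its genes replaced by their sum, and no p is given. Fitted values of very low genes depend on the prior count. With 3 libraries against 3, the smallest p of an exact permutation test is 0.1. The labels do not call the replicates separate cultures, so p-values measure the spread between these libraries, which may be technical. Replicates of a group differed by more than sampling noise, with 6.421 to 56.53 as the chi-square of a pair divided by its degrees of freedom.

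Titles give each group replicate numbers 1 to 3, with replicates 1 and 3 in lane 2 and replicate 2 in lane 1. Libraries of the same number shared deviations from the mean of their group (correlations across genes 0.168 to 0.415 for UTX knockout with wild type, 0.182 to 0.416 for labelled MLL4 knockdown with wild type, 0.181 to 0.467 between the perturbed groups). No label says what the numbers mark, and the main test did not use them. Values from a fit that takes the number as a pairing block stand beside its results. Pairs of different number ran from -0.412 to 0.158, -0.307 to 0.154 and -0.396 to 0.226 in the same order. Replicate 2 of the labelled knockdown correlated more with UTX knockout replicate 3 (0.226) than with UTX knockout replicate 2 (0.181), so the pairing is weak between numbers 2 and 3. Lane 1 holds 1 library per group and gives no value of its own.

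On simulated counts for 14574 genes in the UTX knockout comparison, the test recovered 48% of 2-fold and 99% of 4-fold changes, and called 8 unchanged genes. The simulation gave every gene the same dispersion and no replicate effect. The members are low and spread widely between replicates, so these shares do not carry over to them. Alternatives were DESeq2 1.42.0, its size factors, other filters (no filter, minimum count 30), the block, the 2 groups alone, lane 2 alone, and leaving out libraries. The members and lists were chosen with earlier results of these data known. Named were all members, up to 6 passing genes per list by smallest p, the 10 non-members most correlated with the Zscan4 sum, and the targeted genes. Of 185 list symbols, 9 matched through another symbol and 10 were absent. Promoters are from RefSeq (GRCm38.p6) and shared windows from GENCODE M21. These differ from the builds named for the counts, so coordinates refer to sequence only.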

Additional observations from a re-analysis of the deposited data

How the results depend on the processing

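In the fits run, no member and no Zscan4 sum changed sign in any comparison. In the UTX knockout the 10 calls became 0 in lane 2 alone and 0 without replicate 3 of every group, and 2 to 10 when single libraries were left out. In the libraries labelled MLL4 knockdown the 3 calls (26.6%) became 5 with no filter on low counts (17.3%) and 10 with the replicate block (34.1%). They became 0 in lane 2 alone (9.08%), 6 without replicate 1 of every group (24.2%) and 0 without replicate 3 of every group (9.03%). Leaving out single libraries gave 0 to 5 (15.0% to 27.3%). Between the perturbed groups the 2 calls became 4 with DESeq2's Wald test, 6 with no filter, 1 with the stricter filter (8 members testable), 8 with the replicate block, 4 in the fit of the 2 groups alone (8 testable), 0 in lane 2 alone, 6 without replicate 1 and 0 without replicate 3 of every group, and 0 to 6 when single libraries were left out. Leaving out replicate 1 or 3 of every group was chosen after seeing the data. Without replicate 3 of every group 10, 3 and 1 members had an unadjusted p under 0.05 in the 3 comparisons. Each of these settings keeps 2 libraries per group. Of all tested genes, 74 were called in the UTX knockout in lane 2 alone, 105 without replicate 3 and 3112 without replicate 1 of every group, where all 10 members were called, against 2285 with all libraries. The cause was not tested. The Zscan4 sum ranged from -3.89 to -2.35, from -2 to -0.47 and from 1.05 to 2.72 when single libraries were left out. With 12 to 189 counts per group for Dub1 and 4 to 99 for B020004J07Rik, depth limits the size of single changes.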

Other observations

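Several low genes of the 2-cell-like list did not share the high replicate 1 of wild type; they are named here after their values were seen. Pramel6 had 4, 26 and 22 counts in replicates 1 to 3 of wild type, 0, 1 and 0 in the UTX knockout libraries and 1, 2 and 1 in those labelled MLL4 knockdown. Pramel7 had 8, 27 and 21, then 1, 0 and 0, then 0, 1 and 1 counts. In both, wild type replicate 1 was the lowest of its group, where the Zscan4 genes were highest. Tdpoz3, a speckle-type BTB gene, had 8, 5 and 12 counts in wild type libraries, 3, 1 and 2 in UTX knockout libraries and 5, 4 and 6 in the labelled knockdown, and Tdpoz1 had 6, 11 and 8, then 0, 1 and 0, then 5, 0 and 1. These counts were too low to enter the test.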
